A study of Mus musculus with 115 samples.

Results

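Constructs carrying a motif named ZFP143, ZFP423, ZFX, YY1 or MTF1 were described here, a group of zinc finger motifs other than CTCF and REST. The members were taken by construct name: 5 of the 122 constructs of the unphased class, and MTF1 and ZFP423 again among the 24 constructs of the nuc class and the 24 of the non_nuc class, which makes 9 of the 275 constructs of the series. Because the 5 names were proposed with their methylation levels known, the levels and their distances from a reference are a description and carry no test.

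All 5 factors belong to the zinc finger proteins, which read DNA through small domains folded around a zinc ion, several of them in a row. ZFP143 activates transcription at promoters and is found at anchors of chromatin loops. MTF1 responds to heavy metals and switches on metallothionein genes. YY1 is made in most tissues, activates or represses depending on the promoter, and links promoters with enhancers. ZFX is an X-linked activator that binds many promoters of dividing cells, embryonic stem cells among them. ZFP423 holds a long array of zinc fingers and is known as a partner of EBF and SMAD factors. A factor that stays bound keeps a methyltransferase off its own motif, and one that displaces nucleosomes leaves the DNA beside the motif open.

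Accessibility was read by amplicon NOMe-seq, in which nuclei are treated with a GpC methyltransferase and the cytosines it reached are counted after bisulfite conversion. The cells were embryonic stem cells of the 129S6/SvEvTac line, with constructs placed at a single site by recombinase-mediated cassette exchange; the labels give no treatment and no other genotype for the groups used here. The 60 libraries used comprised 18 unphased pools with 2 libraries each, 5 nuc pools and 3 non_nuc pools with 3 libraries each. In the constructs' names nuc and non_nuc are spelled nucleosomal and non_nucleosomal; the occupancy of nucleosomes itself was not measured apart from these values. Replicates are libraries with the same label and another number, and nothing says that they came from separate cultures, so their spread may be technical. The binding and the amount of the factors were not measured.

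Each value is the methylated share of reads at a GCH site (GC followed by A, C or T), with positions counted along the amplicon. The files give fractions without read counts, so depth is unknown and no interval for counting error is given. The median construct of a library lay between 42.4% and 57.0% over the whole amplicon in the pools of the members and of the constructs without a motif. The construct sequences were not used here, so the place of the motif was inferred from the GCH positions alone: the window is the gap between shared sites where most sites of single constructs fall. It spans positions 127 to 154 in the unphased class and 176 to 203 in the other classes. The flank is the sites within 40 bp of it on either side, 3 in the unphased class and 7 in nuc and in non_nuc. The GCH sites inside a window belong to the inserted sequence, so the windows of unlike motifs are averaged over unlike positions. ZFP143 had 4 sites in its window, ZFP423 and ZFX 5 each, MTF1 4 and YY1 3. No source used here gives genome coordinates of the insertion site.

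At the unphased flank, the members spread over much of the range of the class. Flank methylation averaged 57.0% ± 4.31 for MTF1, 53.0% ± 0.855 for ZFP143, 48.4% ± 0.0345 for ZFX, 45.6% ± 5.65 for YY1 and 30.9% ± 0.686 for ZFP423 (SD, n = 2 each). These were places 5, 7, 18, 32 and 116 of 122 from the highest, around a class median of 41.95%. The zinc finger constructs CTCF at 87.5% ± 3.93 and REST at 83.4% ± 1.55 (SD, n = 2 each), places 1 and 2, were far above all 5 members. Neighbours in this order lay close together. MTF1 stood between SP2 at 58.0% and SRF at 53.5%, ZFP143 between SRF and RFX2 at 52.3%, and ZFP423 between TEAD1 at 31.9% and HSF2 at 30.6%. Among the members themselves, the library values of ZFX and YY1 overlapped and those of MTF1 and ZFP143 nearly met, while ZFP423 was below every other member in both libraries.

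The order was another one inside the window. YY1 had 56.5% ± 6.10 and ZFX 51.9% ± 0.967, places 4 and 9 of 122, whereas MTF1 had 32.8% ± 1.18, ZFP423 31.2% ± 1.02 and ZFP143 27.2% ± 0.903, places 106, 111 and 116 (SD, n = 2 each). The class median was 42.6%. The 5 motifs thus gave 3 kinds of profile: a low window between high flanks (MTF1, ZFP143), a high window (YY1, ZFX), and a window and flank that were both low (ZFP423). The construct without a motif had 42.1% ± 0.487 in its window and 41.9% ± 1.24 at its flank (SD, n = 2), close to the class medians.

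The MTF1 flank read 60.01% and 53.9% in its 2 libraries, and that of the construct without a motif 41.0% and 42.8%. Both MTF1 libraries were above both libraries without a motif, by 15.1 percentage points on average. The median construct of the MTF1 pool was at 40.5% and 42.1%, so that MTF1 was higher by 19.6 percentage points in library 1 and by 11.8 in library 2. The distance was the same in direction in both libraries but unequal in size. Site by site, the flank next to the window stood out most: at position 164 MTF1 read 56.8% and 51.9%, and the construct without a motif 33.6% and 32.5%. At position 187, farther from the window, MTF1 read 48.8% and 43.0%, against 30.3% and 31.9%. Further along, positions 197 and 210 were still at 45.5% and 42.8% on average (places 6 and 7 of 121), while position 243 at 29.0% was below the 34.9% of the construct without a motif. On the upstream side position 101 read 74.5% and 66.8% for MTF1, and the 8 sites before it averaged 55.9% ± 1.05 (SD, n = 2), place 40 of 122.

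Within the MTF1 window, the 4 sites at 131, 137, 144 and 149 read 35.1%, 33.4%, 37.2% and 25.6% on average. Positions 131 and 149 are GCH sites in the construct without a motif too, where they read 48.3% and 40.2%. MTF1 was lower at both shared sites, the differences being -13.2 and -14.6 percentage points. Over its whole window, MTF1 read 33.7% and 32.0%, below the 39.5% and 44.7% of the pool's median construct. The step from the last window site to the first flank site was from 25.6% to 54.4%.

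ZFP143 varied little between its libraries. Its flank read 52.4% and 53.7%, with the pool's median construct at 40.9% and 42.1%. Its difference from the pool was 11.5 ± 0.0626 percentage points (SD, n = 2), and the values did not overlap. Every flank site was above the construct without a motif: position 101 by 6.24 percentage points, position 164 by 17.1 and position 187 by 10.1. Inside the window the sites at 130, 143, 150 and 153 read 29.1%, 22.2%, 26.4% and 31.1% on average, lowest at position 143. None of these 4 positions is a GCH site in the construct without a motif. The window as a whole read 27.9% and 26.6%, and the pool's median construct 43.4% and 43.3%. ZFP143 was also high before its flank, with positions 43 and 47 at 64.5% and 65.2% (place 6 of 122 each), whereas the construct without a motif read 58.7% and 63.3% there.

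ZFX had an open window rather than a protected one. Its 5 window sites, at 131, 137, 143, 149 and 154, read 54.7%, 52.7%, 54.9%, 45.4% and 51.9% on average. At the 3 positions shared with the construct without a motif, ZFX was higher by 6.40 percentage points at 131, 5.19 at 149 and 14.1 at 154. At positions 131, 137 and 143 ZFX was the highest of the 13, 13 and 10 constructs with a site there. The window read 52.6% and 51.2% in the 2 libraries, above the pool's median construct at 45.6% and 47.0%. The flank read 48.4% in both libraries, 2.33 ± 0.289 percentage points above the pool's median construct and 6.50 above the construct without a motif. ZFX also had high levels far upstream: its 8 sites before the flank averaged 63.6% ± 0.539 (SD, n = 2), place 4 of 122, with position 50 at 69.7% and 69.1%. Downstream of the flank it was at 33.1% ± 0.272 (SD, n = 2), place 62, so the high levels of ZFX lay upstream and in the window.

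YY1 differed more between its libraries than most constructs. Its window read 52.2% and 60.8%, and its flank 41.6% and 49.6%, in libraries 1 and 2. Averaged over its 17 sites, library 2 was 8.55 percentage points above library 1, the fifth largest such gap of 122 constructs. The class median of the absolute gap was 2.34 percentage points, and the other 7 constructs of the YY1 pool had gaps from -5.98 to 1.03. The gap was thus that of YY1 within its library, not of the library as a whole. Whether the number of reads or molecules behind YY1 moved with it was not tested, since the files hold no counts.

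With that spread, the YY1 window stayed above its reference in both libraries. The pool's median construct was at 40.3% and 38.8% in the window, so YY1 was higher by 11.9 and 22.0 percentage points. Its 3 window sites, 132, 145 and 148, averaged 56.6%, 58.1% and 55.0%, each the highest of the 30, 4 and 17 constructs with a site at that position. No window position is shared between YY1 and the construct without a motif. At the flank the distance from the pool was 3.84 and 13.0 percentage points, and library 1 of YY1, at 41.6%, lay between the values of the construct without a motif. Beyond the flank YY1 was low. The 3 sites downstream averaged 28.2% ± 1.87 (SD, n = 2), place 115 of 122, and position 243, at 20.4% and 19.9%, was the lowest of 121 constructs. The 8 sites upstream read 42.2% and 53.2%, 47.7% ± 7.74 (SD, n = 2) on average, against 57.7% ± 2.13 without a motif.

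ZFP423 had low levels in the window and at the flank alike. Its flank read 30.4% and 31.3%, its pool's median construct 46.2% and 46.9%, and the construct without a motif 41.0% and 42.8%. ZFP423 was below both references in both libraries, with a difference of -15.7 ± 0.217 percentage points (SD, n = 2) from its pool. At position 164 it read 20.9% and 20.8%, the fourth lowest of 121 constructs, and at position 101 it read 47.5% and 45.7%. The 5 window sites, 130, 134, 146, 149 and 152, averaged 28.6%, 34.4%, 33.2%, 33.0% and 26.5%, near the mean of the flank. That mean joins 1 upstream site at 46.6% and 2 downstream sites at 23.0%, and the window lay between these 2 sides. Position 149, also a site in the construct without a motif, differed by -7.18 percentage points with ZFP423. Downstream of the flank the levels came back: position 197 was at 33.0% and position 243 at 35.5% on average, within 1 percentage point of the construct without a motif. Before the flank they did not: the 8 sites there averaged 50.0% ± 0.764, against 57.7% ± 2.13 without a motif (SD, n = 2 each). Upstream, positions 47, 50, 53 and 68 differed by -12.3 to -14.1 percentage points, and positions 8 and 22 read 44.0% and 52.1% on average.

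As background for these distances, limma's test with Benjamini-Hochberg adjustment was run over all constructs of the class. Against the pool's median construct, 6.67% of 120 flanks passed an adjusted p of 0.05 (2.5% higher, 4.17% lower). That share rests on 8 flanks and depends on the setting: 27 passed with flanks of 30 bp, 30 with 60 bp, 28 with the median over sites, and 45 with the construct left out of its pool's median. Of the members, ZFP143 was called higher and ZFP423 lower. In windows 24.2% passed (8.33% higher, 15.8% lower), which is 29 constructs, and 48 to 54 with the median over sites, differences of fractions or the construct left out, with YY1 called higher and MTF1, ZFP143 and ZFP423 lower. Against the construct without a motif, 38% of 121 flanks passed (14.9% higher, 23.1% lower), with MTF1, ZFP143 and ZFX called higher and ZFP423 lower. For windows the share was 48.8% (23.1% higher, 25.6% lower), or 59 constructs, and 27 with a replicate block, with YY1 and ZFX called higher and MTF1, ZFP143 and ZFP423 lower. The members were chosen on these same values, so nothing is read from their number. The construct without a motif was alone in its pool and its 2 libraries served every such comparison, so motif and pool cannot be told apart there. The ZFX flank was not called with the flank taken to 60 bp (adjusted p = 0.0641 by limma). The YY1 flank was called higher than without a motif when the median over sites was used. With 1 replicate left out of both constructs, YY1 was 0.56 or 6.79 percentage points higher, each value resting on 1 library of YY1. The MTF1 flank was called higher than its pool with the flank at 30 bp or 60 bp, with the median over sites, or with MTF1 left out of the pool's median. The YY1 flank was called higher than its pool with YY1 left out of the median, and the ZFX window with ZFX left out, with the median over sites, or with differences of fractions.

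MTF1 and ZFP423 were measured in the nuc and non_nuc classes as well, in the same pool of 8 constructs in each class. The construct without a motif was in another pool of each class, so motif and pool cannot be told apart in comparisons with it. In nuc, the ZFP423 flank read 38.1%, 31.7% and 32.9% in libraries 1 to 3, and the construct without a motif 49.3%, 41.9% and 46.4%. The groups did not overlap, and ZFP423, at 34.2% ± 3.41 (SD, n = 3), was place 23 of 24. In non_nuc it read 52.6%, 57.5% and 50.6%, the lowest mean of 24 at 53.6% ± 3.59 (SD, n = 3), whereas the construct without a motif read 54.4%, 64.5% and 62.7%. These groups overlapped. Within the library, ZFP423 differed from its pool's median construct by -8.26, -11.1 and -11.1 percentage points in nuc and by -11.3, -3.10 and -8.23 in non_nuc.

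The lowest levels lay downstream of the ZFP423 window. The 3 downstream flank sites of nuc averaged 9.71%, 6.09% and 6.71% in the 3 libraries, the lowest of 24 constructs at 7.50% ± 1.94 (SD, n = 3), with OctSox_r next at 13.5%. The construct without a motif was low there as well, at 17.5% ± 3.11 (SD, n = 3), and the class median was 22.9%. ZFP423 differed from that construct by -9.96 percentage points at the downstream flank and by -12.9 at the upstream flank. With ZFP423, each of the positions 213, 221 and 236 was the lowest of the class, position 213 at 6.47%, 3.97% and 4.88%. In non_nuc the downstream flank averaged 23.8%, 28.9% and 14.9%, again the lowest of 24, against 37.1% ± 7.46 (SD, n = 3) without a motif. The upstream flank of nuc was at 54.3% ± 4.52 (SD, n = 3), place 23, and there the distance grew toward the motif, from -8.92 percentage points at position 140 to -19.0 at position 157. In non_nuc the upstream flank, at 76.8% ± 2.46 (SD, n = 3), was close to the 78.1% ± 4.86 without a motif. These were places 21 and 19 of 24. Within the library, ZFP423 differed there from its pool's median construct by -9.27, -2.65 and -1.73 percentage points.

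Farther downstream, ZFP423 was among the high constructs of non_nuc. The 5 sites from 292 to 326 were 10.8 to 25.6 percentage points above the construct without a motif. Over all 8 sites beyond the downstream flank, ZFP423 averaged 42.6% ± 1.91 (SD, n = 3), place 5 of 24. It was 7.74 ± 1.60 percentage points (SD, n = 3) above its pool's median construct. The construct without a motif, at 30.7% ± 7.43 (SD, n = 3), was itself place 22, below the class median of 39.6%. Position 297 read 67.9%, 62.3% and 70.9% with ZFP423, the highest mean of 24, and 35.5%, 46.9% and 42.0% without a motif. Position 326 read 63.7%, 55.1% and 56.4%, also the highest mean, against 30.3%, 42.0% and 39.8%. All 3 libraries of ZFP423 were above all 3 without a motif at both positions. MTF1, measured in the same libraries, read 43.5%, 40.2% and 38.9% at position 297. In nuc, ZFP423 at position 297 read 88.4%, 67.9% and 65.9%, around the class median of 71.7%, with library 1 apart from the other 2.

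MTF1 was high at the flank in non_nuc and near the middle of the class in nuc. Its non_nuc flank read 70.1%, 68.0% and 72.6%, place 6 of 24, above all 3 libraries without a motif. The pool's median construct read 63.8%, 60.6% and 58.8%, so that MTF1 was higher by 6.32, 7.38 and 13.8 percentage points. The distance was greatest downstream, where positions 213, 221 and 236 were 16.4, 14.9 and 15.4 percentage points above the construct without a motif. In nuc the flank read 51.8%, 47.2% and 47.9%, place 10 of 24, and its range overlapped with that of the construct without a motif. Its distance from the pool's median construct there was 5.40, 4.36 and 3.91 percentage points.

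Against the construct without a motif, limma called 34.8% of 23 flanks in nuc (26.1% higher, 8.7% lower) and 21.7% in non_nuc, all higher. ZFP423 was called lower in nuc, and neither member was called in non_nuc. In windows 26.1% were called in nuc and 60.9% in non_nuc, all lower, with ZFP423 in both and MTF1 in non_nuc. The construct without a motif had 1 window site, itself high: 67.1% in non_nuc, place 3 of 24, and 28.3% in nuc, place 5. The class medians over the window were 51.3% and 23.9%. In non_nuc, library 2 of the pool that held the construct without a motif stood apart at the 5 sites from 109 to 133. This stretch had low levels in all constructs of the class. Without a motif these sites read 32.2% to 38.4% in library 2, and between 10.9% and 21.9% in libraries 1 and 3. CTCF, in the same pool, averaged 12.5%, 32.6% and 17.3% there in libraries 1 to 3, and REST was also highest in library 2. The high library 2 at these sites was thus not particular to the construct without a motif. Over the whole amplicon, the pool's median construct was at 45.6%, 57.0% and 53.5%, so there library 1 was the low one. The flank of the construct without a motif was lowest in library 1 as well.

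Compared with each other in the same libraries, MTF1 was above ZFP423 at the flank by 13.7, 15.5 and 15.0 percentage points in nuc and by 17.6, 10.5 and 22.0 in non_nuc. The direction was the same in all 6 libraries. On the downstream side alone the distance was 18.1 ± 0.637 percentage points in nuc and 30.1 ± 10.4 in non_nuc (SD, n = 3 each). In the window it was 11.7, 10.02 and 1.94 percentage points in nuc and 12.1, -4.82 and 1.17 in non_nuc, where the sign differed between libraries. Since both motifs were picked for their levels, these distances are given without a test.

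The window of MTF1 read 25.3%, 21.3% and 17.0% in nuc and 46.1%, 39.8% and 33.4% in non_nuc. The construct without a motif read 33.3%, 23.7% and 27.9% in nuc and 61.8%, 68.8% and 70.7% in non_nuc, at its only window site. The ZFP423 window read 13.7%, 11.3% and 15.1% in nuc and 34.0%, 44.6% and 32.3% in non_nuc. In non_nuc, all 3 libraries of both motifs were below all 3 libraries of the construct without a motif, which came from another pool. In nuc, the MTF1 window overlapped with that construct. Neither motif has a GCH site at its position, so unlike sites are compared. In non_nuc that construct was place 3 of 24, MTF1 place 16 and ZFP423 place 18. Within the library, MTF1 differed from its pool's median construct by -10.5, -12.5 and -14.7 percentage points in non_nuc. ZFP423 differed by -22.6, -7.68 and -15.9. In nuc these differences were 0.38, 1.38 and -7.44 for MTF1 and -11.3, -8.64 and -9.39 for ZFP423.

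The distance from the construct without a motif was compared between the contexts with limma across the 23 motifs measured in both, on log2 ratios of methylated to unmethylated share. At flanks 17.4% of motifs were called and at windows 34.8%, all of the latter less negative or more positive in nuc. Both members were picked with their levels in nuc and non_nuc known, so their own values are a description and carry no test. The MTF1 window difference was 1.07 ± 0.43 (log2, SE; 95% interval 0.22 to 1.92), higher in nuc. Against the pool's median construct in place of the construct without a motif, it was 0.56. The ZFP423 window difference was 0.48 ± 0.43 (interval -0.37 to 1.33). At flanks the differences were -0.43 ± 0.35 for MTF1 (interval -1.11 to 0.25) and -0.28 ± 0.35 for ZFP423 (interval -0.96 to 0.39). The last 3 intervals include 0.

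The window sites of both motifs recurred in the 3 classes at the same spacing, 49 bp further along in nuc and non_nuc than in the unphased class, so they can be compared site by site. For MTF1 the last of the 4 sites was the lowest in every class: 25.6% ± 1.24 unphased, 14.0% ± 3.69 in nuc and 28.5% ± 4.91 in non_nuc. The first 3 sites read 33.4% to 37.2% unphased, 20.2% to 27.5% in nuc and 40.8% to 46.2% in non_nuc. For ZFP423 the last of the 5 sites was the lowest in every class as well, at 26.5% ± 0.895, 8.12% ± 2.5 and 26.5% ± 5.84 (SD, n = 2, 3 and 3). Its levels declined along the window in nuc, from 18.9% and 18.1% at the first 2 sites to 11.5%, 10.1% and 8.12%, and in non_nuc, from 46.5% and 47.7% to 34.3%, 29.9% and 26.5%. In the unphased class the inner sites were flat, at 34.4%, 33.2% and 33.0%. Sites with the same spacing thus read differently from class to class, with nuc lowest at all 9 positions. The class median over the window was lowest in nuc too, at 23.9%, against 42.6% unphased and 51.3% in non_nuc. Class medians also fell from the upstream to the downstream flank, from 66.6% to 22.9% in nuc and from 81.9% to 40.6% in non_nuc. The order of classes and the fall along the amplicon were therefore not particular to these 2 motifs.

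Profiles were also set side by side over the 14 sites that at least 90% of unphased constructs share, after the class median at each site was taken off. All these sites lie outside the window, and those of 1 amplicon share their reads, so the correlations are descriptions over 119 constructs. YY1 and MTF1 were nearest to each other (Pearson r = 0.95); the next nearest were SP1 for YY1 (0.94) and REST for MTF1 (0.94). ZFP143 was nearest to BHLHE40 (0.90) and SRF (0.88), ZFX to STAT3 (0.91) and GMEB1 (0.85), and ZFP423 to TEAD1 (0.93) and KLF4 (0.91). Among the members, ZFP423 ran opposite to ZFP143 (-0.88), YY1 (-0.85) and MTF1 (-0.83). ZFX had little in common with YY1 (-0.02) or MTF1 (-0.09).

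In the unphased class, 11 other motifs of C2H2 zinc finger factors were set beside the members, CTCF and REST included. Without those, the other 9 had flanks from 34.6% to 58.0% with a median of 41.6%, and windows from 39.1% to 60.2% with a median of 46.2%. The ZFP423 flank was thus below all 9, while MTF1 and ZFP143 were below SP2 and above the other 8. Of the 11, limma called 4 flanks higher than the construct without a motif (CTCF, REST, KLF5, SP2) and 1 lower (ZFP740), and 6 did not pass. In windows 3 were called higher and 2 lower, and 6 did not pass. Among all 121 constructs tested, 14.9% of flanks were called higher and 23.1% lower, and 23.1% of windows higher and 25.6% lower. Against the pool's median construct, 2 of the 11 flanks were called, REST and KLF5, both higher (2.5% of all 120). In windows 4 were higher and 1 lower against that reference (8.33% and 15.8% of all 120). SP2 and KLF5 shared the high window of YY1, at 60.2% and 57.2%.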

How the data were processed

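The authors deposited a methylated fraction per GCH position and construct, 1 file per library. Phenol and chloroform extraction, bisulfite conversion, amplification and a NEBNext library kit come from the labels' protocols, and trimming with Trimmomatic 0.32 from the submitters' processing notes. Aligner, caller, coverage filter and genome build are not given in the sources used here. Of 10013 values in the 60 libraries used (of 115), 452 were missing.

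The members, lists, windows, flanks and tests were chosen with earlier results of these data known. The text names the members, their references and, for each, the 2 unphased profiles most alike by Pearson r. Neighbours in rank, and other constructs beside a count, were named after their values were seen. A level is the mean over those sites of a region that had values in all libraries of the group. Tests used the M-value log2((f + 0.01)/(1 - f + 0.01)). The design foresaw counts; its form for deposited fractions was used. R 4.3.3 and limma 3.58.1 fitted, across all constructs of a class, the difference from the pool's median construct within a library, from the construct without a motif (unpaired libraries), and between nuc and non_nuc, with Benjamini-Hochberg adjustment. At flanks, every comparison with the construct without a motif had 1 shared standard error. MTF1 was also fitted against ZFP423 among all pairs of a pool, shown only under other settings. An identical MAX::MYC profile in 2 pools was tested once. The fits were also run on simulated data, with shifts larger than any fitted for a member, and smaller shifts were not simulated. There the construct was left out of its pool's median, unlike in the main setting. Python 3.11.15, numpy 2.4.6 and pandas 2.3.3 prepared the tables. Alternatives changed the flank width, the mean over sites, the added constant, the scale, the reference, the replicate block and the libraries. An item on the list of other C2H2 motifs is not reported here.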

Additional observations from a re-analysis of the deposited data

Results flagged for a closer look

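The window difference of MTF1 between nuc and non_nuc was 1.07 ± 0.43 (log2, SE) in limma, and it drew attention because the distance of the same motif from its reference was unequal in the contexts. MTF1 had been picked with these levels known, so the fit is no independent test of that difference. Its pass at an adjusted p of 0.05 was lost without replicate 2, without replicate 3, with a replicate block, with the median over sites, and with the pool's median construct as the reference. MTF1 differed from the construct without a motif by -7.08 percentage points in nuc and by -27.3 in non_nuc. That reference has a single GCH site in the window, which read 67.1% ± 4.66 in non_nuc and 28.3% ± 4.80 in nuc (SD, n = 3 each). Of the 23 motifs tested, 8 were called, all in the same direction, and these tests share the libraries without a motif. The part of that reference in the result was not tested apart; with the pool's median construct as the reference, the difference was 0.56.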

How the results depend on the processing

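Counts of constructs called against the pool's median construct moved most. At unphased flanks 8 were called, against 27 with flanks of 30 bp, 30 with 60 bp, 28 with the median over sites, 13 with differences of fractions and 45 with the construct itself left out of its pool's median. In windows 29 were called, against 48, 51 and 54 with the last 3 of these settings. The non_nuc flank count of 5 was 1 with the median over sites. The count of context calls in windows, 8, was 3 with the median over sites and 5 against the pool's median construct. Leaving out 1 replicate gave 2 to 3 context calls at flanks and 3 to 13 in windows, and 82 to 87 unphased flanks and 110 windows (in both cases) against the construct without a motif, where only the motif's library was dropped and the spread rests on 2 libraries. The cause of these shifts was not tested.

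The MTF1 window context difference of 1.07 was 0.96 with the median over sites and 0.56 against the pool's median construct, and from 0.85 to 1.42 with 1 replicate left out. As a difference of fractions, the ZFP423 window difference was 0.152. The fitted difference of MTF1 over ZFP423, in log2, was 0.76 in the nuc window, or 0.0788 as a fraction, and 0.61 to 1.04 with 1 replicate left out; at the non_nuc flank it was 1.01, and 0.85 to 1.20. No called value changed sign. Signs changed among values not called or within the spread: the fitted MTF1 over ZFP423 difference in the non_nuc window, 0.17, ran from -0.10 to 0.40 with 1 replicate left out, the MTF1 nuc window minus its pool's median construct, -1.89 percentage points, from -3.53 to 0.88, and the YY1 flank over the construct without a motif, 0.21, was -0.06 at 60 bp and -0.02 without replicate 2.

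Same-numbered deviations from the group means correlated over sites at -0.33 to 0.51 in nuc and non_nuc and at -0.50 to 0.27 in the unphased pools. A correlation over sites takes off the mean of each library, so a shift shared by same-numbered libraries would not show. With 2 unphased libraries, the deviations mirror each other and both give the same r. These values therefore cannot decide whether replicate numbers pair the libraries. With the replicate block, the unphased window count against the construct without a motif was 27 in place of 59, and the MTF1 window context difference was 1.07. Without read counts, depth could not be weighed, and with 2 unphased libraries per pool a construct's own spread is poorly known.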
